A study of Mus musculus with 36 samples.

Results

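The Rab family of small GTPases was followed over the 12 groups of a lipopolysaccharide (LPS) time course in mouse bone marrow-derived macrophages (BMDMs), macrophages grown in culture from marrow cells. A gene was a member if its symbol was Rab followed by digits and at most 1 letter from a to d, and pseudogenes were left out. This gave 58 members among 36528 listed genes, and 51 of them passed the filter on low counts among 15685 genes tested. The study compared cells wild type for Cop1, a ubiquitin ligase subunit, with cells floxed at Cop1. Polyadenylated RNA was sequenced from 3 mice of each genotype at 6 time labels, which gave 36 libraries. Both genotypes carried the Rosa26-CreERT2 allele, a ubiquitously expressed, tamoxifen-inducible Cre. The labels name no inducer, so recombination is read here from Cop1 itself. Cells at T0 were untreated at day 7 of differentiation, and those at T2.5 and the later labels T4, T6, T9 and T13 had received 100 ng/ml LPS, a bacterial membrane lipid sensed by Toll-like receptor 4. The labels give no unit for the time. All LPS times were compared with 1 untreated group, so LPS and time in culture cannot be told apart.

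Rab proteins switch between a GTP-bound form on a membrane and a GDP-bound form held in the cytosol. Each marks particular compartments and recruits tethers, motors and other effectors there. In macrophages they order phagosome maturation, the delivery of Toll-like receptors to the surface and to phagosomes, and the secretion of cytokines and granules.

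The libraries held 24069541 to 40298009 counts. Cop1, listed under its older symbol Rfwd2, lay between 9.92 and 15.1 CPM (counts relative to library size, scaled by edgeR's TMM factors) in the 18 wild type libraries and between 5.37 and 8.71 CPM in the 18 floxed libraries, and the groups did not overlap at any time. Its log2 difference, floxed against wild type, ran from -0.70 at T0 to -1.21 at T2.5, and it was called at all 6 times. Counts over the whole gene model do not separate a floxed exon from the rest. Macrophage markers such as Csf1r and Cd68 were abundant in all libraries, and the T cell and red cell genes Cd3e and Hba-a1 were at or near 0. The library of floxed mouse 2 at T9 detected 15045 genes against 17622 to 19693 in the others. The library of wild type mouse 2 at T0 was the shallowest, and that mouse's libraries held both Xist and Y-linked reads. This T0 library also stood apart from the other untreated wild type ones. Its chi-square values per degree of freedom were 148 against mouse 1 and 121 against mouse 3, where those mice gave 17. No pair in another group passed 41.9. It is part of the untreated group behind every wild type LPS comparison. Genotype calls at T0 that were lost without the latter library, and those at T9 lost without the former, are given with the genotype results.

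Promoters are shown for 4 members whose transcripts moved early or late, so that the members described below can be read beside their sequence. Of the 58 members, 48 had a promoter entry in the RefSeq table for GRCm38.p6. The 250 bases before the start given by the entry are printed 5′ to 3′ on the gene's strand. For Rab19 this window lies inside the RefSeq gene (chr6:39380709-39390666), so the start is an internal one. Rab20 (chr8:11478641-11478890, minus strand) and Rab32 (chr10:10558208-10558457, minus strand) were among the members with the largest rises at both T2.5 and T13, Rab9 (chrX:166479868-166480117, minus strand) rose early and then fell, and Rab19 (chr6:39381103-39381352, plus strand) rose late. Capitals mark a match to 1 of 4 searched motifs.
Rab20: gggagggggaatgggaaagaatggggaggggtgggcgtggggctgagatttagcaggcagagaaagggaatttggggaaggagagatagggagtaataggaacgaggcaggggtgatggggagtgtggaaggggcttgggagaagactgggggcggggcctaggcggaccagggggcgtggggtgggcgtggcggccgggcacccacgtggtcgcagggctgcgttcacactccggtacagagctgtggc
Rab32: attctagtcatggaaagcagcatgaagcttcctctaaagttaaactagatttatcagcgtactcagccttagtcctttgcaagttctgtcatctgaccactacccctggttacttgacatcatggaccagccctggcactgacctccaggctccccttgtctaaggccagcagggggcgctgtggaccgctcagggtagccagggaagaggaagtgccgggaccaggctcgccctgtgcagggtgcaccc
Rab9: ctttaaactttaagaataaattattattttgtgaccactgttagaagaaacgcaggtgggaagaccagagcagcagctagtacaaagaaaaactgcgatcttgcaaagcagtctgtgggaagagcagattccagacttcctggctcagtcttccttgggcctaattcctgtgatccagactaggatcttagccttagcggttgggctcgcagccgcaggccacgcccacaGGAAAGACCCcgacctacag
Rab19: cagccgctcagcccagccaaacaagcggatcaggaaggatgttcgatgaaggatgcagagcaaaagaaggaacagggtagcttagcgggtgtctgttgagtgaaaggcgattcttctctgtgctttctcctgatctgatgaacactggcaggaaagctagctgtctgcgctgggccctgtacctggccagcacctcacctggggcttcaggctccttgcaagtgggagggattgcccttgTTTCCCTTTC

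The motifs were searched on both strands. A kappa B-like match (GGG, any 2 bases, TTTCC) lay in the promoters of 3 of the 48 members, 6.25%, against 1.65% of 27025 genes with an entry. They were Rab9, Rab15 and Rab28, and the matching entry of Rab15 lay inside its RefSeq gene. The match of Rab9 began 20 bases before the start, on the opposite strand. An interferon response element-like match (GAAA, any 2 bases, GAAA) lay in 1 member, Rab19, 2.08% against 3.46% of genes. AP-1-like matches (TGANTCA, which reads alike on both strands) lay in 2 members, 4.17% against 7.82%, and C/EBP-like matches (TTGCNNAA) in 4 members, 8.33% against 10.8%. Rab20 and Rab32 held none of the 4 in this window. The matches describe letters in the reference, and binding was not measured.

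The family spanned a wide range of levels in untreated wild type cells. On the authors' RPKM scale (reads relative to gene model length and library size, adjusted by size factors), 25 members lay at 10 or more, 13 between 1 and 10, and 20 under 1. The highest was Rab5c, an early endosome GTPase, at 134 ± 15 RPKM (mean ± SD, n = 3). It was followed by the late endosome and lysosome GTPase Rab7 at 79.6 ± 2.44 RPKM. Rab1b, which acts between endoplasmic reticulum and Golgi, came next at 69.7 ± 19.3 RPKM, and its spread covered Rab7. Rab31, of the trans-Golgi and early endosome, stood at 63.2 ± 4.21 RPKM. Rab1 (49.1 ± 5.83), Rab32 (45.1 ± 4.65), Rab8a (44.3 ± 7.24) and Rab8b (41.4 ± 11 RPKM) followed, and these 4 did not differ beyond their spread. Rab17, Rab25, Rab26, Rab39b, Rab3c and Rab40b did not pass the filter, and Rab9b had 0 counts in every library.

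**Figure D1:**
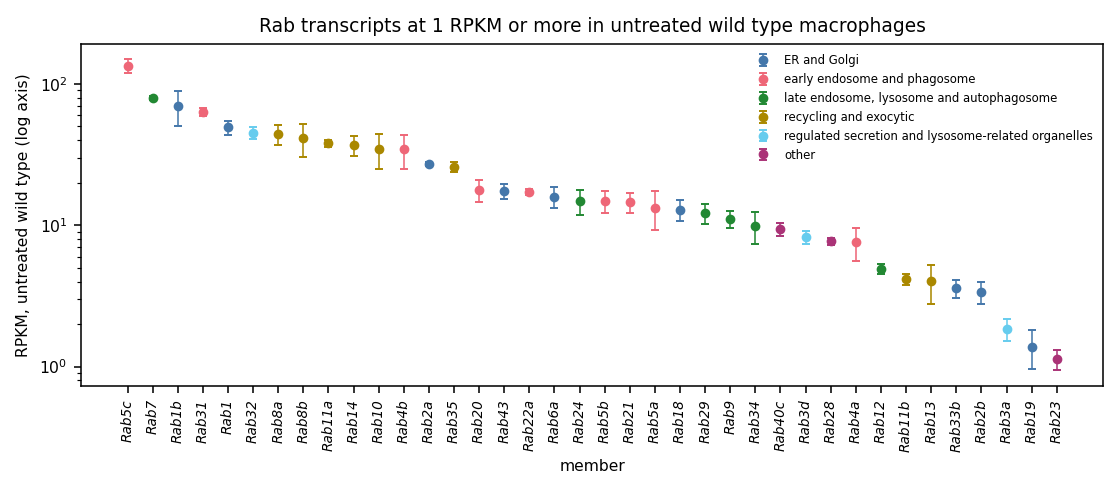
Mean RPKM (log axis, bars show SD, n = 3 libraries) of each member with at least 1 RPKM in untreated wild type macrophages, ordered by level and coloured by the compartment it is best known for. Rab5c was highest at 134 ± 15 RPKM.

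The summed level of the family moved differently on the 2 scalings. Of all counted reads, Rab transcripts took 0.432% ± 0.0227 in untreated wild type cells and between 0.449% and 0.477% (group means, n = 3) at the LPS times. After TMM scaling, which assumes that most genes do not change, the same sum went from 2573 CPM at T0 to 5285 CPM at T9 in wild type cells. In floxed cells it went from 2913 CPM at T0 to 6062 CPM at T6, while their share of reads moved from 0.450% to 0.456%. The TMM factors lay between 1.53 and 1.73 in untreated libraries and between 0.747 and 0.942 at T4 to T9. The median log2 fold change of all genes against T0 was -0.06 to -0.15 with TMM and -0.72 to -1.10 with library totals in wild type cells. Levels per cell were not measured, and in bulk RNA fewer cells of a type and less RNA per cell cannot be told apart. Fold changes below are on the TMM scale, and values on library totals are given where they change the direction.

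**Figure D2:**
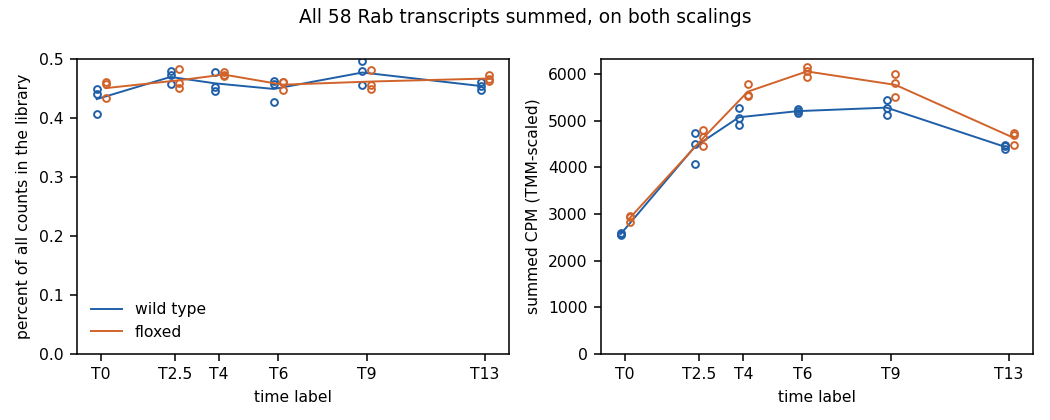
Summed Rab transcripts against the time label, as percent of all counts (left) and as TMM-scaled CPM (right), with 1 circle per library and lines through the means of 3 mice. The share of reads stayed between 0.406% and 0.496% in all libraries, while the scaled sum at T4 to T9 lay at 4903 CPM or more against 2968 CPM or less at T0.

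In wild type cells more members were called higher than lower at each LPS time by edgeR's quasi-likelihood test at an adjusted p under 0.05. At T2.5, 24 members were higher and 7 lower, where 28.8% of all tested genes were higher and 30% lower. On library totals the split at T2.5 turned to 9 higher and 26 lower members, beside 14.8% and 61.8% of genes. At T6, 26 members were higher and 11 lower (all genes 32.1% and 38.4%), against 12 and 31 on library totals (16.5% and 68.5%). At T13, 26 were higher and 13 lower (32.6% and 34.7%), against 13 and 26 (16.5% and 63.8%). Relative to the median of all genes, 34 of the 51 tested members lay above it at T2.5 and 35 at both T6 and T13, with the same numbers on both scalings. At T4, 26 members were higher and 12 lower (31.5% and 36.4%), against 11 and 30 on library totals (16% and 67.1%). At T9 the counts were 26 and 13 (32.3% and 37.9%), against 14 and 30 (17.2% and 66.8%).

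In floxed cells 23 members were higher and 8 lower at T2.5 (29% and 28% of genes), against 11 and 25 on library totals. At T4 there were 26 and 10 (31.7% and 35.1%), against 12 and 31, and at T6 29 and 12 (32.6% and 37.7%), against 12 and 32. At T9 there were 30 and 12 (32.5% and 38.4%), against 11 and 30, and at T13 23 and 11 (30.8% and 35%), against 15 and 24. On library totals 14.5% to 17% of all genes were higher and 59.1% to 69.4% lower at these times.

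On the TMM scale, 18 members were higher at all 5 LPS times in wild type cells and 6 were lower. On library totals these numbers were 4 and 17. Rab20, Rab22a and Rab32 were higher, and Rab3d, Rab40c, Rab42 and Rab4a lower, at all 5 LPS times in both genotypes on both scalings. The wild type mean was lowest at T0 in 27 of the 51 tested members. It was highest at T0 in 12, at T13 in 12, at T9 in 9 and at T2.5 in 7. Matching shares over all genes were not counted for calls at all 5 times or for lowest and highest times. These numbers describe the members alone.

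**Figure D3:**
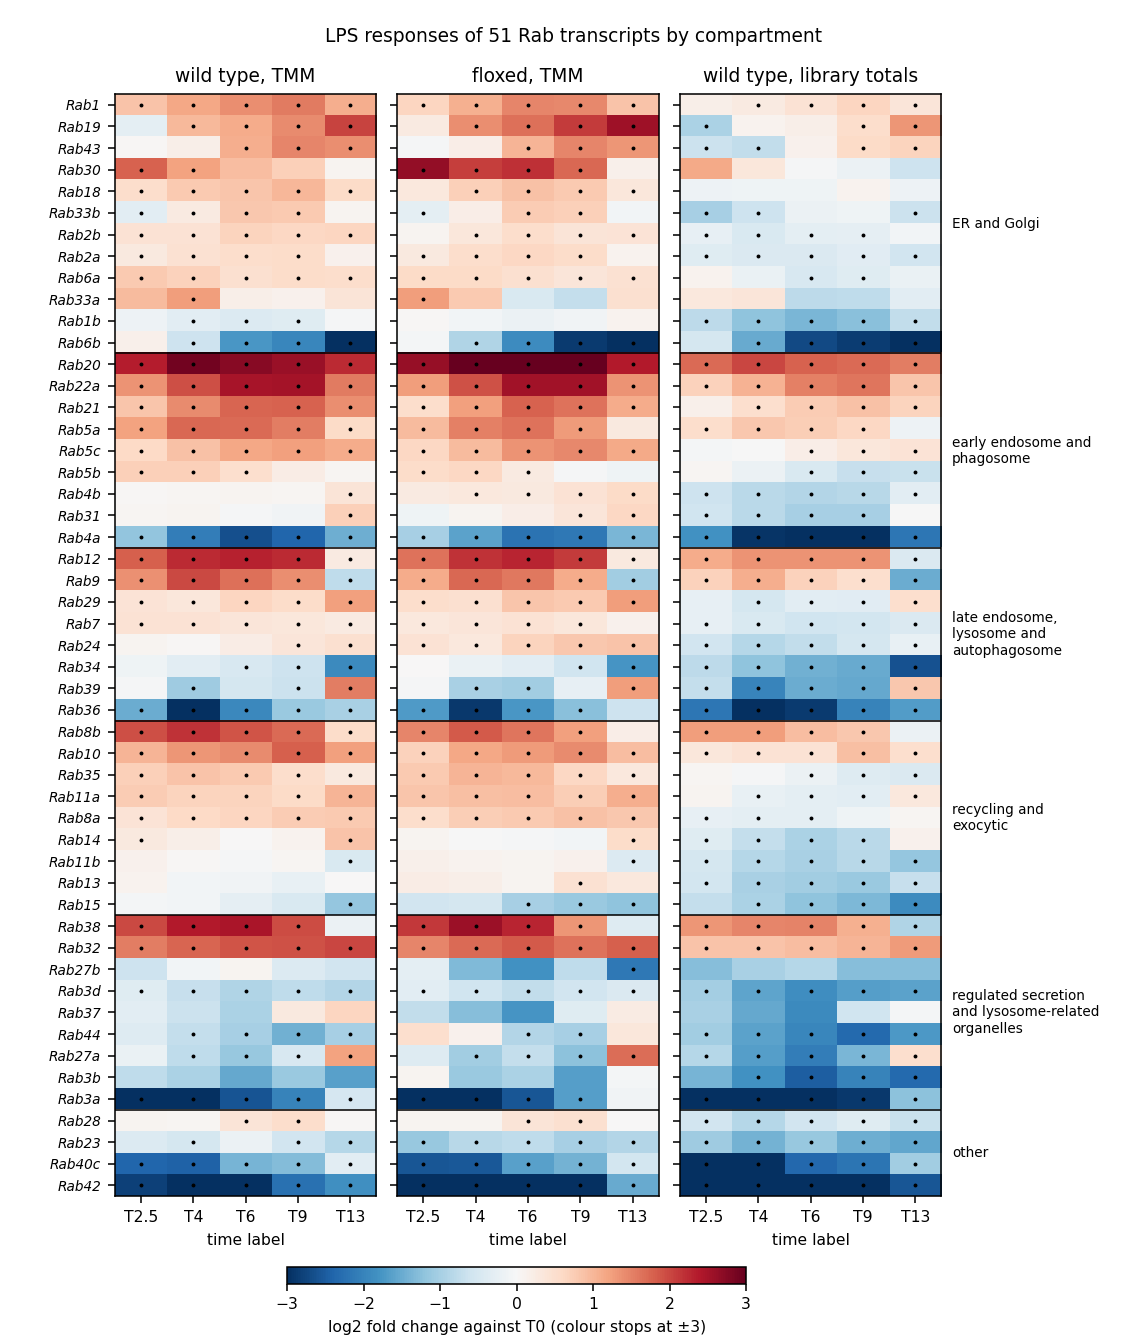
Log2 fold change against T0 (colour, stopping at ±3) of the 51 tested members by compartment and time label, in wild type and floxed cells with TMM scaling and in wild type cells with library totals; dots mark an adjusted p under 0.05. Rab20, Rab22a and Rab32 stayed red and Rab40c, Rab42, Rab4a and Rab3d blue in all 3 panels, while members such as Rab7 turned from higher to lower on library totals.

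Among the GTPases of early endosomes and phagosomes, 6 of 9 were higher and 1 lower at T2.5, with a median log2 fold change of 0.73. At T13, 7 were higher and 1 lower, with a median of 0.72. On library totals 3 were higher and 3 lower at T2.5 (median 0.05), and 4 and 3 at T13 (median -0.003). For this and the later compartments, 28.8% of all genes were higher and 30% lower at T2.5. These shares were 32.1% and 38.4% at T6 and 32.6% and 34.7% at T13, and those on library totals are given above. Rab20, which acts on maturing phagosomes, read 10.9, 15.9 and 12.7 CPM in the 3 untreated wild type libraries and 65, 70.4 and 67.8 CPM at T2.5. At T4 it read 87.7, 97.6 and 107 CPM and at T13 still 66.6, 65.5 and 54.9 CPM. All LPS libraries lay above all untreated ones. The log2 fold change was 2.37 (SE 0.11, adjusted p = 6.43e-18) at T2.5 and 2.89 at T4, and 1.71 at T2.5 on library totals. Rab22a, of early and recycling endosomes, read 35.3, 33.7 and 31.7 CPM at T0, 198, 176 and 181 CPM at T6 and 102, 105 and 89.4 CPM at T13. It rose more slowly, to a fold change on the log2 scale of 2.46 (SE 0.08, adjusted p = 1.14e-22) at T6, after 1.35 at T2.5.

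The 3 Rab5 genes, whose products drive fusion of early endosomes, differed in size and course. Rab5a went from 38.8, 21.2 and 36.5 CPM at T0 to 116, 108 and 93.9 CPM at T4, with a log2 fold change of 1.72, and was back at 0.58 by T13, or -0.14 on library totals. Rab5b rose by 0.73 at T2.5 and was at 0.066 at T13, which was not called on the TMM scale but called lower, at -0.66, on library totals. Rab5c rose from 269 ± 35.4 CPM at T0 to 630.5 ± 4.61 CPM at T9, a log2 fold change of 1.23, though its T2.5 value of 0.59 became -0.065 on library totals. Rab5a overlaps Pp2d1, Rab5b overlaps Pmel, Rab20 overlaps E230013L22Rik and Rab6a overlaps Mrpl48 in RefSeq, and the strand setting of the counting is not given in the sources used here. Rab21, of early endosomes and integrin traffic, was higher by 0.83 at T2.5 and 1.39 at T13.

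Rab4a, which returns cargo quickly from early endosomes to the surface, went the other way. It read 8.75, 15.2 and 11 CPM at T0 and 1.42, 2.60 and 1.56 CPM at T6, and the 2 groups did not overlap. The log2 fold change was -2.64 (SE 0.24, adjusted p = 3.5e-11) at T6 and -1.46 at T13. Rab4b, its close relative, was named after its values were seen. On the TMM scale it was called at T13 alone, at 0.39, which turned to -0.32 on library totals, where it was called lower at all 5 times. Rab31 did not pass the test at T2.5 (0.064) and was called higher at T13 (0.72), where library totals gave -0.0031.

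Among the 8 tested GTPases of late endosomes, lysosomes and autophagosomes, 4 were higher and 1 lower at T2.5 and 5 were higher and 3 lower at T13 (medians 0.25 and 0.27). On library totals the calls at T2.5 were 2 higher and 5 lower (median -0.40), and those at T13 were 2 and 6 (median -0.44). Rab7 read 209.5, 226 and 206 CPM at T0 and 302, 276 and 285 CPM at T2.5, a log2 fold change of 0.43 (SE 0.06) that turned to -0.23 on library totals. Relative to the median of all genes this was a small rise on both scalings. Rab9, which carries mannose 6-phosphate receptors from late endosomes to the trans-Golgi, read 20.1, 16.2 and 16.3 CPM at T0, 71.9, 72.9 and 64.6 CPM at T4 and 10.2, 10.2 and 10.6 CPM at T13. Its log2 fold change was 1.99 (SE 0.09, adjusted p = 2.68e-18) at T4 and -0.76 (SE 0.09, adjusted p = 2.71e-08) at T13, and it passed the test in both directions on library totals too. Rab12, which sends recycling cargo to lysosomes, rose from 41.7 ± 2.76 CPM at T0 to 207 ± 8.76 CPM at T6 and was at 50.5 ± 0.958 CPM at T13. The T13 value, 0.27, became -0.44 on library totals.

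Other late endosome members, Rab34 and Rab39, stood furthest from T0 at T13. Rab34, which acts on phagosomes and Golgi, read 18.1, 27.6 and 17.2 CPM at T0 and 5.03, 6.76 and 5.05 CPM at T13, a fold change on the log2 scale of -1.90 (SE 0.15, adjusted p = 1.42e-12), and the groups did not overlap. Rab39, linked to phagosomes and autophagy, fell to 1.13 ± 0.148 CPM at T4 from 2.36 ± 0.537 CPM and stood at 6.02, 6.49 and 8.02 CPM at T13, above all earlier wild type libraries. Its log2 fold change was -1.07 at T4 and 1.53 at T13.

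Among the recycling and exocytic GTPases, 6 of 9 tested members were higher and 0 lower at T2.5. On library totals 2 were higher and 4 lower. Rab8b, which serves exocytosis and surface delivery, read 274, 175 and 289.7 CPM in untreated libraries, 1195, 1108 and 995 CPM at T4 and 352, 339 and 392 CPM at T13. The log2 fold change was 1.93 (SE 0.14, adjusted p = 1.24e-13) at T2.5. At T13 it was 0.55, or -0.18 on library totals. Rab10, which carries Toll-like receptor 4 to the macrophage surface, read 143, 87.2 and 141 CPM at T0 and 448, 398 and 450.3 CPM at T9, a log2 fold change of 1.80, and was called higher at all 5 times on both scalings in wild type cells. The untreated library of wild type mouse 2 was the low one for Rab5a, Rab8b and Rab10. Rab11a, of recycling endosomes, rose by 0.76 at T2.5 and 1.03 at T13, but at T6 its 0.66 turned to -0.30 on library totals. Rab14, of Golgi to endosome traffic, was called at T2.5 (0.30), which turned to -0.37 on library totals and was not called without the untreated library of wild type mouse 2. Rab35 of fast recycling (0.71) and Rab8a, the relative of Rab8b (0.42) were higher at T2.5, and on library totals Rab8a was -0.24. Rab11b (0.12) and Rab13 (0.11) were not called at T2.5, and both were lower on library totals, at -0.54 and -0.55.

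Of the 12 members of the endoplasmic reticulum and Golgi, 6 were higher and 1 lower at T2.5, and 8 higher and 2 lower at T6. On library totals 0 were higher and 6 lower at T2.5, where the median went from 0.37 to -0.30, and 1 was higher and 5 lower at T6. Rab1 rose from 133 ± 13.5 CPM at T0 to 389.9 ± 7.82 CPM at T9. Its partner gene Rab1b was not called at T2.5 (-0.14) or T13 (-0.04), and library totals called it lower at both (-0.79 and -0.75). Without the untreated library of wild type mouse 2, which read 185 CPM against 111 and 118 CPM in the other 2, its T13 value was 0.23 and passed the test. Rab2a (0.30) and Rab6a (0.78) were higher at T2.5, and on library totals Rab2a was -0.36. Rab33b, a Golgi GTPase of autophagy, was lower at T2.5 (-0.32) and higher at T6 (0.80); on library totals the T6 value was -0.17. Rab19 read 1.66, 3.23 and 2.61 CPM at T0, 1.82, 2.24 and 2.00 CPM at T2.5 and 9.21, 12.3 and 8.96 CPM at T13. The T13 libraries lay above all untreated ones, with a fold change on the log2 scale of 2.03 (SE 0.21, adjusted p = 3.73e-10). Rab6b, known from neurons, fell from 3.75 ± 0.673 CPM to 0.364 ± 0.130 CPM at T13 (-3.36), and was named after its values were seen.

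The GTPases of regulated secretion and lysosome-related organelles split. Of 9 tested members, 2 were higher and 2 lower at T2.5 (median -0.35), and 2 higher and 4 lower at T6 (median -0.95). On library totals 2 were higher and 4 lower at T2.5, and 2 higher and 5 lower at T6. On the TMM scale the 2 higher were Rab32 and Rab38, close relatives that load enzymes into lysosome-related organelles. Rab32 read 95.9, 86.1 and 102 CPM at T0, 297, 242 and 283 CPM at T2.5 and 381, 361 and 390.4 CPM at T13. It stayed above all untreated libraries, with log2 fold changes of 1.53 (SE 0.10, adjusted p = 6.99e-15) and 1.99 (SE 0.10, adjusted p = 1.04e-17). Rab38 was far rarer and did not stay up, with 0.584, 0.598 and 0.702 CPM at T0, 3.56, 4.43 and 2.33 CPM at T6 and 0.622, 0.476 and 0.561 CPM at T13. Rab3a, a GTPase of regulated exocytosis, fell from 2.74, 4.01 and 3.18 CPM to 0.176, 0.317 and 0.215 CPM at T2.5, a fold change on the log2 scale of -3.78 (SE 0.28, adjusted p = 2.85e-13). At T13 it read 2.17, 2.44 and 2.33 CPM, and the remaining fall of -0.51 was not called without the untreated library of wild type mouse 2. Rab3d, of secretory granules, fell by less and stayed down, from 33.4 ± 4.01 CPM to 17.8 ± 0.848 CPM at T6 (-0.91). Rab27a, which docks secretory granules, was lower at T6 (-1.13) and higher at T13 (1.21), at 0.706 ± 0.173 and 3.60 ± 0.274 CPM. Rab27b, the relative of Rab27a, and Rab37 were not called at any LPS time in wild type cells.

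Rab40c carries a SOCS box and serves as the substrate receptor of a ubiquitin ligase. It read 23.8, 27 and 21.2 CPM at T0, 3.95, 5.18 and 4.65 CPM at T2.5 and 19.99, 18.6 and 18.8 CPM at T13. All T2.5 libraries lay below all untreated ones, with a fold change on the log2 scale of -2.38 (SE 0.12, adjusted p = 1.66e-17). At T13 the difference was -0.33. Rab42 and Rab36 were rare and were named after their values were seen. Rab42 had 68, 40 and 43 reads in the untreated wild type libraries and 2, 1 and 4 at T4, and Rab36 had 49, 34 and 67 against 1, 3 and 2. Both were called lower at T4.

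The other 11 tested members were described after their values were seen. Rab18, found at the endoplasmic reticulum and lipid droplets, was higher at all 5 LPS times in wild type cells, from 0.53 at T2.5 to 0.999 at T9, and was not called at any of them on library totals. Rab29, a Golgi GTPase that recruits the kinase Lrrk2, was higher at all 5 times too, with 1.22 at T13 and 0.51 on library totals, but at T6 its 0.65 turned to -0.31. Rab2b, the relative of Rab2a, was higher by 0.43 at T2.5, where library totals gave -0.25. Rab43, of the Golgi, was not called at T2.5 (0.028) and was higher at T13 (1.38, 0.66 on library totals). Rab44 fell by T9 (-1.45) and Rab15 by T13 (-1.17) on both scalings. Rab24 and Rab28 were not called at T2.5 (0.085 and 0.092), and library totals called both lower there (-0.57 and -0.57). Rab30 was higher at T2.5 (1.78) on the TMM scale alone. Rab33a was called at T4 (1.24) and Rab3b at no LPS time on the TMM scale.

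**Figure D4:**
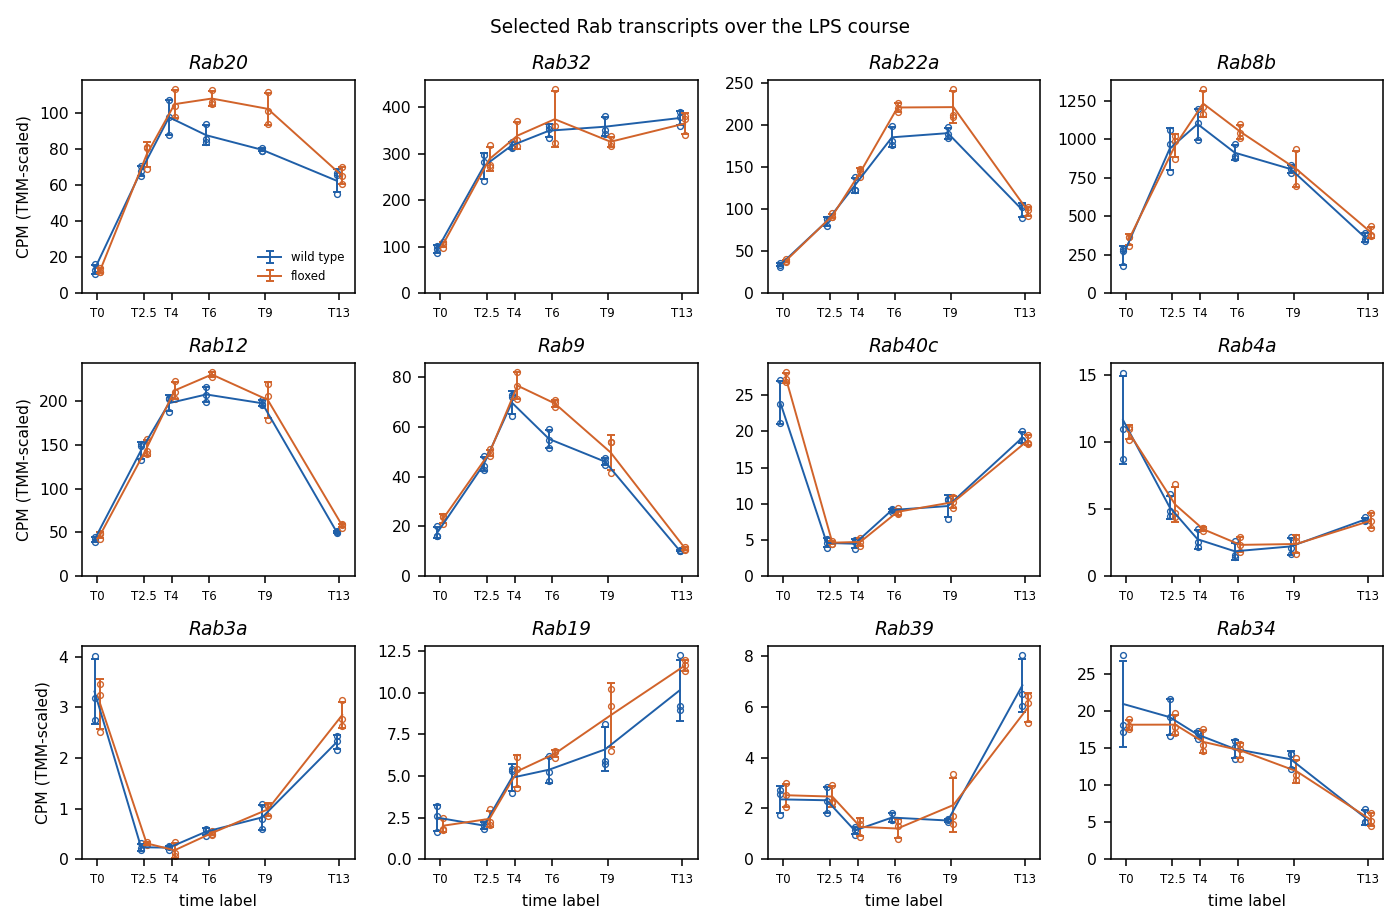
TMM-scaled CPM of 12 members against the time label in wild type (blue) and floxed (orange) cells; circles are single libraries, lines pass through means and bars show SD (n = 3 mice). Rab20, Rab32 and Rab22a stayed above T0 through T13, Rab9, Rab12 and Rab8b peaked at T4 or T6, and Rab40c, Rab4a and Rab3a dipped at T2.5 to T6; on library totals the T13 values of Rab12 and Rab8b lay below T0.

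Late and early LPS libraries were scaled more alike than LPS and untreated ones, with an all-gene median of -0.01 on TMM and -0.06 on library totals. In wild type T13 libraries against those at T2.5, 19 members rose and 16 fell, where 32.5% of genes rose and 31.8% fell. Library totals gave 18 and 17 (30.7% and 33.5% of genes). Rab3a (3.27), Rab19 (2.32), Rab40c (2.06), Rab39 (1.56) and Rab27a (1.41) rose on the log2 scale. Rab38 (-2.17), Rab9 (-2.12), Rab34 (-1.78), Rab12 (-1.51) and Rab8b (-1.38) fell. Rab20 did not pass the test (-0.12).

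Genes that act on Rab proteins were taken from 4 lists, counted in wild type cells. For comparison, at T2.5 the share of all genes called higher was 28.8%, or 14.8% on library totals, and that called lower was 30%, or 61.8%. At T6 the share higher was 32.1%, or 16.5%, and the share lower 38.4%, or 68.5%. Of 8 genes for prenylation and GDP dissociation inhibition, 3 were higher and 2 lower at T2.5, against 0 and 6 on library totals. Of 38 tested guanine nucleotide exchange factors, which switch Rabs on, 19 were higher and 12 lower, with a median of 0.35 against -0.06 for all genes, and 7 higher and 25 lower on library totals. Relative to the median of all genes 25 of the 38 lay above it on both scalings. Of 38 tested GTPase-activating proteins, which switch Rabs off, 9 were higher and 15 lower at T2.5 (median -0.19) and 9 higher and 23 lower at T6 (median -0.78, against -0.15 for all genes). On library totals these were 5 and 29 at T2.5 and 5 and 31 at T6. Of 46 tested effectors and tethers, 17 were higher and 18 lower at T2.5, against 8 and 28 on library totals. Rin2 (3.38) and Rabgef1 (2.03), exchange factors for Rab5, and Rab11fip1 (5.43), an effector of Rab11, were higher at T2.5 on the log2 scale, among the smallest p in their lists. Tbc1d2, a GTPase-activating protein for Rab7, fell by 3.24 on the log2 scale and Tbc1d1, which acts on Rab10, rose by 2.20. Rabif, a chaperone of nucleotide-free Rabs, fell by 0.73.

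Between genotypes few members were called. On the TMM scale Rab31, Rab3d, Rab11a, Rab1, Rab7 and Rab9 were called higher in floxed cells at 2 or more times, and Rab23 lower at 2. Floxed cells had 4 members higher and 0 lower at T0, where 5.6% of genes were higher and 3.97% lower. At T2.5 there were 0 higher and 1 lower (1.45% and 2.45%), and at T4 1 and 0 (2.11% and 2.75%). The T6 libraries had 7 higher and 1 lower (4.19% and 3.61%). The T9 libraries had 6 and 2 (5.92% and 4.53%), and those of T13 had 1 and 0 (1.37% and 1.73%). In sums over the 6 times of each mouse, 3 mice against 3, 2 of 52 tested members were higher and 1 lower (2.37% and 4.95%). Library totals gave 0 higher and 1 lower at T0 (2.42% and 5.04% of genes), 0 and 0 at T4 (0.638% and 3.47%), and 0 and 1 for T6 (0.81% and 6.97%). They gave 1 and 5 for T9, where 1.56% of genes were higher and 9.25% lower, and 0 and 1 in the sums (1.43% and 5.98%). The all-gene median at T6 moved from 0.06 to -0.14 between the scalings.

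The calls shared by all 15 alternative analyses were Rab31 at T9 and Rab3d at T13. Rab31 read 181, 197 and 245 CPM in wild type and 339.5, 300.5 and 349 CPM in floxed libraries at T9. The genotypes did not overlap, and the log2 difference was 0.67 (SE 0.10, adjusted p = 5.25e-05). At T6 it was 0.42, again without overlap. That call was kept in 10 of 15 alternatives and lost on library totals (0.23). Floxed libraries lay above wild type ones at T0 and T4 too, without a call. At T2.5 the difference was 0.011, with overlap and no call. In wild type cells Rab31 was at 225 ± 11.2 CPM at T0 and was not called at T2.5 to T9, where library totals called it lower, and it reached 369 ± 34.8 CPM at T13. Floxed cells stood at 329.7 ± 25.8 CPM at T9 and 399 ± 14.1 CPM at T13.

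Rab3d at T13 read 18.1, 19 and 17.2 CPM in wild type and 26.2, 33.1 and 24 CPM in floxed libraries, without overlap, a log2 difference of 0.62 (SE 0.10, adjusted p = 0.000327). At T6 (0.35) and T9 (0.35) it was also called, kept in 5 and 7 of the 15 alternatives. Rab11a was higher in floxed cells from T4 (0.38) through T6 (0.42) to T9 (0.33). At T6 it read 137, 148 and 145 CPM in wild type and 182, 212 and 179.7 CPM in floxed libraries, and the call was kept in 14 of 15 alternatives, all but library totals (0.22). On library totals it was not called at T4 (0.28) or T9 (0.16) either. The T9 call of Rab11a was lost without the library of floxed mouse 2 at T9.

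Rab23, which restrains Hedgehog signalling, was the member called lower in floxed cells more than once. It read 2.93, 4.49 and 4.34 CPM in wild type and 1.79, 2.12 and 1.96 CPM in floxed libraries at T2.5, without overlap, a log2 difference of -1.001 (SE 0.22, adjusted p = 0.00716). At T6 the difference was -0.84 and in the mouse sums -0.58. The call was kept in 13 of 15 alternatives at T2.5 and in 11 of 15 at T6. In the mouse sums it was kept in 6 of 13, and was lost when any 1 floxed mouse was left out. Of 11 stromal and endothelial markers, 9 were lower and 0 higher in floxed cells at T2.5, and their summed level was 311 to 700.2 CPM in wild type and 117 to 156 CPM in floxed libraries. Lum was at 0 in some libraries, and Col1a1 was at 18.7 CPM or more in all 36. Of 8 macrophage markers, 3 were higher at T0, 3 at T6 and 4 at T9 in floxed cells and 0 lower, and their summed level at T9 was 18961 to 20514 CPM in wild type and 23870 to 25835 CPM in floxed libraries. The part of either marker list in the Rab differences was not tested.

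Rab1, Rab7 and Rab9 were higher in floxed cells at both T0 and T6. For Rab1 the log2 differences were 0.34 and 0.41, for Rab7 0.21 and 0.27, and for Rab9 0.39 and 0.33. On library totals none of these 6 was called, and all stayed above 0. Of the 15 alternatives, 8 kept the T0 call of Rab1, 7 that of Rab7 and 10 that of Rab9. The T6 calls were kept in 11, 10 and 8. Without the untreated library of wild type mouse 2, Rab1 at T0 was 0.26 and not called, while the T0 calls of Rab7 and Rab9 remained. Without all libraries of that mouse Rab9 at T0 was 0.31 and not called. Rab7 was also called at T9 (0.20), in 4 of 15 alternatives as well, and was 0.021 and not called on library totals. The members called once were Rab8b at T0 (0.49), Rab22a at T6 (0.25), and Rab13 (0.52), Rab20 (0.36), Rab27a (-0.79) and Rab42 at T9, named after their values were seen. Without the untreated library of wild type mouse 2, Rab8b at T0 was 0.30 and not called. On library totals Rab8b, Rab22a, Rab13 and Rab20 were not called. For Rab42 the reads were 5, 9 and 6 in wild type and 0, 0 and 3 in floxed libraries. Rab31 was the only member still called at T9 without the library of floxed mouse 2 there. Without the untreated library of wild type mouse 2 the calls were 2 at T0, 13 at T6 and 13 at T9.

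Rab37, a GTPase of mast cell and macrophage secretion, was not called at any time although floxed mouse 1 stood apart. Its reads at T0 were 25, 17 and 19 in wild type and 316, 18 and 21 in floxed libraries. At T13 they were 25, 24 and 20 against 218, 26 and 30. Floxed mouse 1 was above the other 5 mice at all 6 times. Rab37 overlaps Cd300lf in RefSeq.

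**Figure D5:**
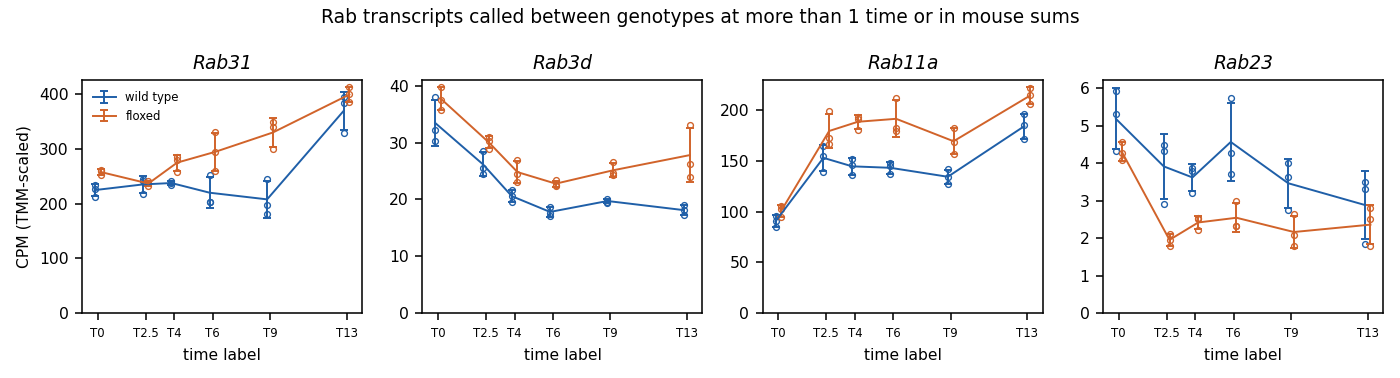
TMM-scaled CPM of 4 members against the time label in wild type (blue) and floxed (orange) cells; circles are single libraries, lines pass through means and bars show SD (n = 3 mice). Floxed libraries lay above wild type ones for Rab31 at T9 (329.7 ± 25.8 against 208 ± 33.3 CPM) and below them for Rab23 at T2.5; on library totals the Rab11a difference at T6 stayed above 0 but was not called.

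Whether the LPS response itself differed between genotypes was tested by 1 interaction over the 5 LPS times. By edgeR's test 0 of 51 members were called, where 0.599% of all genes were, and 5 had an unadjusted p under 0.05. They were Rab31, Rab27a, Rab44, Rab3d and Rab24. Without the untreated library of wild type mouse 2, Rab24 was no longer under that limit and Rab7 was. The share of all genes under that unadjusted limit was not counted, so no excess is read from these 5. Rab31 had the smallest of these (adjusted p = 0.0855 by edgeR's quasi-likelihood test), with a log2 response in floxed minus wild type cells of 0.47 at T9 and -0.19 at T2.5. With each mouse as a block, Rab31 was called (adjusted p = 0.0209), and likewise without wild type mouse 3 (adjusted p = 0.0182). By the same edgeR test it was not called on library totals (adjusted p = 0.415). Without wild type mouse 1 or 2, or any 1 floxed mouse, its adjusted p ran from 0.28 to 0.785. DESeq2's likelihood ratio test called Rab31 (adjusted p = 0.00734) and Rab27a (adjusted p = 0.04). No edgeR alternative called Rab27a, which had an adjusted p of 0.153 on library totals.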

How the data were processed

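The authors deposited raw counts of reads that aligned uniquely to a gene model, and RPKM adjusted by size factors, per the file headers. The submitters' processing notes name GSNAP as a tool and GRCm38 as the genome build. The aligner version, annotation, counter and strand setting are not given in the sources used here. Symbols and gene model sizes came from the deposited gene table. Fits used the deposited counts with R 4.3.3, edgeR 4.0.16 (quasi-likelihood test, filterByExpr over the 12 groups, TMM scaling, 1 mean per group, 36 libraries), with Benjamini-Hochberg adjustment over all 15685 genes and a threshold of 0.05. CPM are these counts scaled by TMM, and RPKM was used to compare levels between genes. Counts summed per mouse were fitted over 17182 genes. DESeq2 1.42.0 was an alternative, beside size factors, library totals, other filters, omitted libraries and mice, and blocks. The fit was tested on simulated data.

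Libraries held 24069541 to 40298009 counts, and intervals from counts cover counting error only. Chi-square values per degree of freedom between replicates were far above 1 in every pair, from 9.13 to 148, so all 36 were kept as separate libraries. The labels shown number the replicates of each group. Libraries that share a genotype and a replicate number were taken as those of 1 mouse, which gives each mouse a library at every time. Deviations from group means had a median correlation of 0.14 within a mouse (90 pairs, from -0.10 to 0.47). Between mice of a genotype the median was -0.07 (180 pairs). Deviations of 3 libraries from their own mean add up to 0, so the -0.07 is no separate evidence of pairing. The mouse was used as a block in an alternative. Replicate numbers shared between genotypes had a median of -0.08 (18 pairs) and do not pair mice. The fit used for the results had no block and treats libraries of a mouse as independent.

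Members, compartments, motifs and lists were chosen with earlier results of these data known, and the compartments are groupings made for this work. Members named are landmarks of each compartment, the 6 highest and 6 lowest called fold changes at T2.5 and T13 with at least 5 CPM, those called between genotypes at 2 or more times or in mouse sums, and the 8 highest by RPKM. Up to 3 regulators per list were named by smallest p at T2.5. Promoters came from RefSeq for GRCm38.p6. Markers of neutrophils and progenitors were lower in floxed cells for 4 of 8 genes at T0. Those of dendritic cells were lower there for 1 of 5, of lymphocytes for 0 of 2 and of red cells and platelets for 1 of 3. The neutrophil and progenitor list was not lower throughout. The T6 libraries had 3 of its genes higher in floxed cells and 0 lower. Its summed level in them was 69.3 to 76.6 CPM in floxed and 43.5 to 50.8 CPM in wild type cells. The T9 libraries had 1 higher, those of T13 had 2, and neither had any lower. No gene of this list was called for T2.5 or T4, and the mouse sums had 1 higher and 4 lower.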

Additional observations from a re-analysis of the deposited data

How the results depend on the processing

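The 11 counts of members called between times stayed within 1.5 times under every alternative; without single mice or libraries they ran over 28 to 34 (wild type T2.5), 33 to 39 (T4), 37 to 38 (T6), 36 to 40 (T9), 36 to 40 (T13), 31 to 37 (T13 against T2.5), and in floxed cells 28 to 34, 34 to 36, 38 to 43, 38 to 42 and 30 to 37. Genotype counts moved more, and the cause was not tested. At T0 (4) library totals gave 1, a 5 CPM filter 2 and only the groups compared 0; at T4 (1) library totals gave 0 and only the groups compared 2. At T6 (8) library totals gave 1, no filter 4, the 5 CPM filter 5 and only the groups compared 3, and at T9 (8) no filter gave 5, the 5 CPM filter 3 and only the groups compared 1. At T13 (1) DESeq2 gave 2. The mouse sums (3) gave 1 on library totals, 0 with the 5 CPM filter and 6 with DESeq2, and the interaction (0) gave 2 with DESeq2. Without single mice or libraries the genotype counts ran from 0 to 7 at T0, 0 to 1 at T2.5, 0 to 3 at T4, 2 to 13 at T6, 1 to 13 at T9, 1 to 1 at T13, 0 to 2 in the sums and 0 to 1 in the interaction. Without wild type mouse 2, whose libraries held both Xist and Y-linked reads, they were 1 at T0, 5 at T6 and 5 at T9. Leaving out wild type mouse 1 gave 7 at T0 and 5 at T9, wild type mouse 3 gave 2, 0, 0, 3 and 2 at T0 to T9, 0 in the sums and 1 in the interaction, floxed mouse 1 gave 0 at T0, 0 at T2.5, 2 at T6, 3 at T9 and 0 in the sums, floxed mouse 2 gave 1 at T0, 5 at T6, 2 at T9 and 0 in the sums, and floxed mouse 3 gave 0 at T4, 2 at T6, 3 at T9 and 0 in the sums. The T9 library of floxed mouse 2 alone took T9 to 1, and the T0 library of wild type mouse 2 took T0 to 2, T4 to 3, T6 and T9 to 13 and the sums to 1. With the replicate number as a block the counts at T6 and T9 were 10 and 10 and the sums called 0. With the mouse as a block the interaction called 1 member. No other count moved by over 1.5 times. On library totals the T2.5 values turned to -0.54 for Rab11b, -0.55 for Rab13, -0.37 for Rab14, -0.36 for Rab2a, -0.60 for Rab31, -0.065 for Rab5c, -0.23 for Rab7 and -0.24 for Rab8a, and the T13 values to -0.69 for Rab13, -0.58 for Rab2a, -0.0031 for Rab31, -0.43 for Rab35, -0.14 for Rab5a, -0.66 for Rab5b, -0.20 for Rab6a, -0.44 for Rab7 and -0.18 for Rab8b. Without the T0 library of wild type mouse 2, Rab1b at T13 was 0.23 and called, and without wild type mouse 1 it was -0.21.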
